A study of Mus musculus with 19 samples.

Results

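Celsr1, Tbcd and Actn1 are 3 of the 1609 genes in the authors' deposited table of log2 expression ratios for mouse skin squamous cell carcinoma. By its name the table lists differentially expressed genes. Shares and medians of all genes are thus over that selected list and not over all expressed genes. The 3 genes were named as a set of polarity and cytoskeleton genes, with results of these data in view, and were looked up by symbol. For each, all 6 ratios were read, and every listed Smad2/3 binding site and merged ATAC peak in the gene body or the 10 kb either side was placed. The set counts as chosen by these same ratios, sites and peaks, so their values are given as a description, with no test. Quiescent cells (CD71lo H2BGFPhi), double negative cells (CD71lo H2BGFPlo) and proliferative cells (CD71hi H2BGFPlo) were sorted from SCC1 and SCC2, tumours that grew in skin after intradermal injection of 10000 cells, all of strain C57BL/6. CD71 is the transferrin receptor, and H2BGFP is a histone label that is diluted at each division. Each population gave 1 RNA library per tumour from 100000 cells. A Smad2/3 ChIP library came from 12000000 SCC1 cells kept in culture in 50 uM calcium and given 5 ng/mL TGFβ1 for 1 h. ATAC libraries were made from 50000 sorted cells of the same populations, of CD71hi H2BGFPhi cells, and of a Tgfbr2KO tumour, SCC3, and their peaks were deposited as 1 merged list. Sites were thus mapped in cultured cells, expression in tumours, and accessibility in a pool of libraries.

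Celsr1 encodes a cadherin that spans the membrane many times and is a core part of planar cell polarity, the system by which cells of a sheet align with each other. In mouse epidermis it sits at cell borders and orients hair follicles. Tbcd encodes tubulin folding cofactor D, which binds beta-tubulin and, together with cofactors C and E and the small GTPase Arl2, assembles and takes apart the tubulin dimers of microtubules. Actn1 encodes alpha-actinin 1, which crosslinks actin filaments and ties them to integrin adhesions. Smad2 and Smad3 are the transcription factors that carry the TGF-β signal to DNA.

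The start sites of Tbcd and Actn1 lay in merged ATAC peaks, which mark accessible DNA, and the peaks covered the whole 300 bp promoter window of 250 bases before to 50 after the start. These windows are RefSeq sequences of GRCm38.p6, matched for 2 of the 3 members, at chr11:121451741-121452040 (plus strand) and chr12:80260314-80260613 (minus strand). They are shown because they are the accessible promoters of genes whose Smad2/3 sites lie elsewhere, and they run 5′ to 3′ on the strand of the gene, with CpG steps in capitals.
Tbcd: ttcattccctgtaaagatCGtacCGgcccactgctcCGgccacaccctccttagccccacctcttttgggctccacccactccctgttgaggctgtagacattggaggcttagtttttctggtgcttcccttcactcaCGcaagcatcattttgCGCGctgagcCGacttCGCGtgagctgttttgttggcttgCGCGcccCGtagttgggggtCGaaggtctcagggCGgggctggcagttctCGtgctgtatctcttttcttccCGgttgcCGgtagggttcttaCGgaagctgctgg
Actn1: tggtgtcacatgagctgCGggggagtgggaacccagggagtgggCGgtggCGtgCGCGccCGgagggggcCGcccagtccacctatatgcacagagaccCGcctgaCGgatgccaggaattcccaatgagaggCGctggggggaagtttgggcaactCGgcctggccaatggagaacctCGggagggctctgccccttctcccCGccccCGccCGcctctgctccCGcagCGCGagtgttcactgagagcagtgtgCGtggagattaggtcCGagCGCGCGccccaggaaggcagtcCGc
Both were rich in CpG, with 24 steps at Actn1 and 18 at Tbcd against a median of 7 in 32851 promoter windows, and in G and C, with 68.3% at Actn1 and 57.7% at Tbcd against a median of 52.7%. As many CpG steps as at Actn1 were found in 20% of windows and as many as at Tbcd in 29.7%, and 35.5% of windows touched a merged peak. The letters CAGAC, part of the SMAD binding element and present in 49.6% of windows on either strand, were in neither promoter. Nor were GGCGCC (11.9% of windows), the AP-1 letters TGANTCA (7.81%) or the E-box CAGCTG (16.3%). The TEAD letters GGAATG, present in 14.7% of windows, occurred once at Tbcd on the opposite strand, starting at base 3. No match says only that these letters are not in this window.

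All 3 genes had ratios below 0 in quiescent and in double negative cells over proliferative cells of both tumours. The differences were moderate, with relative RNA in the slow-cycling cells at between 45.1% and 77.3% of the proliferative value. The scaling of libraries is not given, so these values do not show the amount of RNA per cell. Between quiescent and double negative cells the log2 ratios lay between -0.59 and 0.34 in the authors' deposited table, and for Tbcd and Actn1 the sign of that difference was not shared by the tumours. With 1 library per population and tumour there is no replicate within a tumour. No test was run on the pair of tumours, since the genes were chosen with these values in view, and the depth is unknown, since the table gives neither levels nor read totals. In such bulk libraries fewer cells of a type and less RNA per cell cannot be told apart.

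For Celsr1 the authors' deposited table gave a log2 ratio of quiescent over proliferative cells of -0.99 (SCC1) and -0.85 (SCC2). The ratio of double negative over proliferative cells was -0.90 (SCC1) and -0.63 (SCC2) in the authors' deposited table. Celsr1 was the steadiest of the 3 genes between tumours in quiescent over proliferative cells, with values 0.13 apart. In double negative over proliferative cells it was the least steady, at 0.27 apart against 0.05 for Tbcd and 0.05 for Actn1. It was the only member whose ratio of quiescent over double negative cells had the same sign in both tumours. That ratio was -0.13 (SCC1) and -0.26 (SCC2) in the authors' deposited table, which is smaller than either difference from proliferative cells in the same tumour.

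For Tbcd the ratio of quiescent over proliferative cells was -0.66 (SCC1) and -1.06 (SCC2) in the authors' deposited table. In double negative over proliferative cells the authors' deposited table gave -1.04 (SCC1) and -0.99 (SCC2), the lowest ratios of the 3 genes in that comparison in either tumour. The ratio of quiescent over double negative cells was 0.34 (SCC1) and -0.10 (SCC2) in the authors' deposited table. In SCC1, then, the lower value for Tbcd was in double negative cells, while in SCC2 both slow-cycling populations stood at a similar level.

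For Actn1 the authors' deposited table gave a ratio of quiescent over proliferative cells of -0.37 (SCC1) and -1.15 (SCC2). These are the highest and the lowest value of the 3 genes in that comparison, 0.78 apart. The ratios of double negative over proliferative cells lay close together, at -0.52 (SCC1) and -0.58 (SCC2) in the authors' deposited table. Quiescent over double negative cells gave 0.11 (SCC1) and -0.59 (SCC2) in the authors' deposited table. The tumours thus differed for Actn1 in the ratios that use the quiescent library and not in the one that leaves it out.

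**Figure D1:**
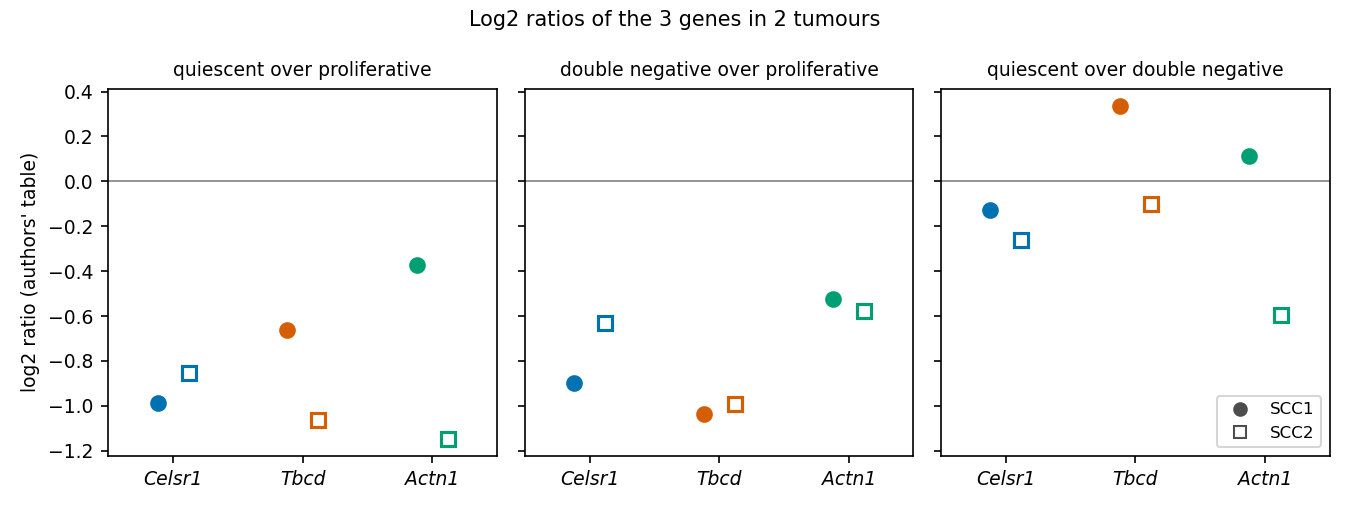
Log2 ratios from the authors' deposited table for Celsr1, Tbcd and Actn1 (y axis) in SCC1 (filled circles) and SCC2 (open squares), with 1 panel per pair of populations and 1 library per population and tumour. All points against proliferative cells lie below 0, while Tbcd and Actn1 have points on both sides of 0 in quiescent over double negative cells.

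A direction below 0 in both tumours was common in the table. In quiescent over proliferative cells 841 of 1609 genes, or 52.3%, were below 0 in both tumours, and in double negative over proliferative cells 819 genes, or 50.9%. In quiescent over double negative cells 483 genes, or 30%, were below 0 in both tumours, as Celsr1 was. None of the 3 members had ratios of -1 or lower in both tumours for quiescent over proliferative cells, as 23.3% of the genes had. None had ratios of -1 or lower in both tumours for double negative over proliferative cells either, as 25.2% had. In both tumours a ratio of 1 or more was seen for 11.3% of genes in quiescent over proliferative, 15.5% in double negative over proliferative and 1.31% in quiescent over double negative cells, and ratios of -1 or lower in the last of these for 2.3%, in each case with 0 members. Of all genes 35.5% in SCC1 and 39.8% in SCC2 had a lower ratio of quiescent over proliferative cells than Celsr1. For Tbcd these shares were 48.0% in SCC1 and 31.8% in SCC2, and for Actn1 55.7% in SCC1 and 27.2% in SCC2. The median of all genes in that comparison was -0.61 (SCC1) and -0.49 (SCC2), so Actn1 in SCC1 stood above it and every other value of the members in that comparison below it. The 3 ratios of a tumour did not add up exactly: the ratio of quiescent over proliferative cells exceeded the sum of the other ratios by a median of 0.039 (SCC1) and 0.027 (SCC2) over all genes, and by 0.023 to 0.039 for the members, which is small beside all but the ratios nearest 0.

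**Figure D2:**
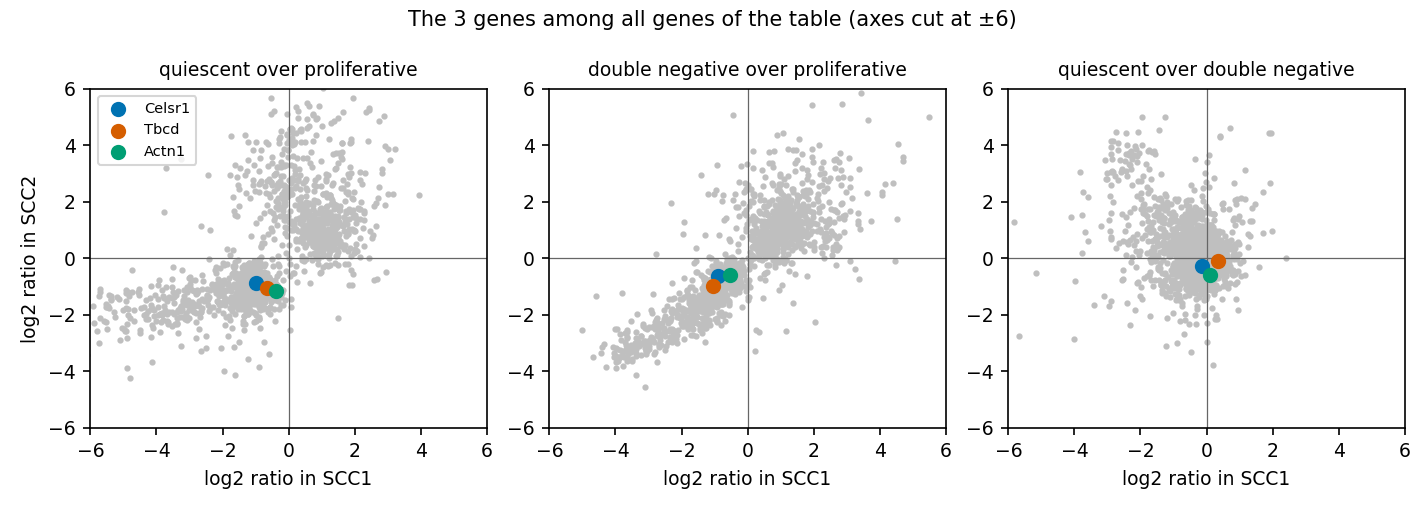
Log2 ratios in SCC1 (x axis) against SCC2 (y axis) for all genes of the authors' deposited table (grey) with Celsr1, Tbcd and Actn1 in colour, 1 panel per pair of populations. Axes end at 6 in either direction, which leaves out 47, 36 and 42 genes in the panels from left to right. Against proliferative cells the members sit among the genes that are lower in both tumours.

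All 16 listed cell cycle genes, such as Mki67, Ccnb1 and Top2a, were lower in both slow-cycling populations of both tumours. Of all genes 52.3% were lower in quiescent and 50.9% in double negative cells. The cell cycle genes had a median ratio of quiescent over proliferative cells of -4.44 (SCC1) and -1.70 (SCC2) in the authors' deposited table. Markers of other cells differed too: 12 of 18 listed fibroblast genes were in the table, of which 7 were higher and 0 lower in quiescent than in proliferative cells of both tumours. These shares were 35.8% and 52.3% for all genes. The rest, Col1a2, Col6a1, Col6a2, Col6a3 and Postn, were below 0 in SCC1 and above 0 in SCC2. The fibroblast medians were 0.07 (SCC1) and 4.35 (SCC2) in the authors' deposited table. In quiescent over double negative cells the fibroblast median was -2.72 (SCC1) and 3.07 (SCC2) in the authors' deposited table. A lower value in SCC1 than in SCC2, the opposite order to that of the members, was not particular to fibroblast genes. The medians in that comparison were -1.16 (SCC1) and 1.30 (SCC2) for cell cycle genes and -1.59 and 2.30 for immune genes. For keratinocyte genes they were -1.76 (SCC1) and 1.96 (SCC2), and for all genes -0.23 and 0.13. Of 17 immune genes 8 were in the table, with medians of quiescent over proliferative cells of -0.34 (SCC1) and 2.95 (SCC2) in the authors' deposited table. Of 12 endothelial genes 3 were in the table, of which 1 had ratios above 0 in both tumours for quiescent over proliferative cells and 0 had ratios below 0 in both, against 35.8% and 52.3% of all genes. In double negative over proliferative cells the medians in the authors' deposited table were 2.64 (SCC1) and 1.47 (SCC2) for fibroblast genes, 1.24 and 0.68 for immune genes and 3.34 and 1.63 for endothelial genes. The part of these cells in the members' ratios was not tested. Of 17 listed keratinocyte genes only Epcam and Krt6b were in the table, and both had ratios of double negative over proliferative cells below 0 in SCC1 and SCC2, as the members and 50.9% of all genes had. Epcam, an epithelial adhesion protein gene, had ratios of -1.93 (SCC1) and -0.68 (SCC2) there, and -3.21 and -0.40 in quiescent over proliferative cells, in the authors' deposited table. Krt6b, a keratin gene, had -1.54 (SCC1) and -0.47 (SCC2) in double negative cells, and -3.71 and 3.22 in quiescent cells, each over proliferative cells, in the authors' deposited table. The part of epithelial cell content in the members' ratios was not tested. The submitters' processing notes name mm9 beside mm10 for the double negative libraries, and its part in their ratios was not tested.

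The genes closest to each member over the 6 ratios, by Euclidean distance among 1567 genes without a ratio at the table's limit, were not the other members. Only 4 of the 6 ratios are independent, since the third of each tumour nearly follows from the other two. For Celsr1 the nearest was Tnfrsf21, a death receptor, at a distance of 0.097, followed by the chaperone genes Hsp90aa1 and Hspd1, the replication factor gene Rfc1 and the CTP synthase gene Ctps. For Tbcd the nearest were L3mbtl2 at 0.18, the growth factor gene Nrg1, Gtf2e1, Coro2a, which encodes a coronin, and Gtse1. For Actn1 they included the phosphatase gene Dusp7 at 0.18, the nuclear pore gene Nup153 and Steap2. Tbcd stood at rank 157 and Actn1 at rank 232 from Celsr1, Celsr1 at rank 81 and Actn1 at rank 171 from Tbcd, and Celsr1 at rank 148 and Tbcd at rank 156 from Actn1. The distances between members were 0.74 for Celsr1 and Tbcd, 0.88 for Celsr1 and Actn1 and 0.91 for Tbcd and Actn1.

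Few of the genes that work with the members were in the table, and the direction of the rest is unknown. Absence from a list of differentially expressed genes does not show that a gene was not expressed. Of 47 listed tubulin and tubulin folding genes 12 had a ratio, and 9 of these, or Tbcd and 8 others, were lower in quiescent than in proliferative cells of both tumours, against 52.3% of all genes. Their median was -0.83 (SCC1) and -0.80 (SCC2) in the authors' deposited table, beside -0.61 and -0.49 for all genes. The lower ones were mostly tubulins, led by Tube1 (epsilon-tubulin of centrioles; -0.87 in SCC1, -1.63 in SCC2), Tubb3 (-2.40, -0.02) and Tubb6 (-1.45, -0.88) in the authors' deposited table. The 3 genes higher in quiescent cells of both tumours were Tbcc, Arl2 and Pfdn5, named here after their values were seen. Tbcc encodes cofactor C, which acts with cofactor D, and had ratios of 0.84 (SCC1) and 0.93 (SCC2) in the authors' deposited table. Arl2, the GTPase that binds cofactor D, had 1.14 (SCC1) and 0.59 (SCC2) in the authors' deposited table. The prefoldin subunit gene Pfdn5 had 0.66 (SCC1) and 1.05 (SCC2) in the authors' deposited table. Tbcd, and the prefoldin subunit gene Pfdn4, thus had the sign of the tubulins, while Tbcc and Arl2, the listed partners of Tbcd with a ratio, had the opposite sign. In double negative over proliferative cells 9 of the 12 were again lower and 3 higher, against 50.9% and 42.6% of all genes.

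Of 40 other genes of microtubule-binding proteins 6 had a ratio, with 5 lower and 1 higher in quiescent than in proliferative cells of both tumours, against 52.3% and 35.8% of all genes. Fignl1 (a DNA repair ATPase of the fidgetin family; -4.97 in SCC1, -2.57 in SCC2), the tubulin-sequestering Stmn1 (-4.30, -1.47) and the microtubule polymerase gene Ckap5 (-1.05, -1.18) had the ratios largest in size in the authors' deposited table.

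Actin and adhesion genes were split. Of 59 listed actin crosslinker and adhesion genes 6 had a ratio, 4 higher and 2 lower in quiescent than in proliferative cells of both tumours, against 35.8% and 52.3% of all genes. Actn1 and Itga2, the integrin alpha 2 subunit that binds collagen (-2.19 in SCC1, -0.30 in SCC2 in the authors' deposited table), were the lower ones. Tenc1, a tensin that links integrins to actin, had 2.01 (SCC1) and 0.96 (SCC2), and the alpha-actinin-binding protein gene Pdlim4 0.61 and 1.98, in the authors' deposited table. Of 48 genes of actin and contractility 6 had a ratio, 3 higher and 3 lower, against 35.8% and 52.3% of all genes. The lower ones included Anln, the anillin of the cleavage furrow (-4.91 in SCC1, -2.32 in SCC2), and Diap3, a formin (-4.49, -2.64), and the higher ones the smooth muscle actin gene Actg2 (0.73, 5.08), in the authors' deposited table. Polarity genes were nearly absent from the table: of 40 planar polarity genes only Celsr1 and the ligand gene Wnt11 had a ratio, the ligand's being 0.57 (SCC1) and 4.60 (SCC2) in the authors' deposited table, and of 25 apicobasal polarity genes 0 had one.

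The Smad2/3 list, which by its name is of bound sites with a motif, held 6143 sites of 201 bp from 1 ChIP library, and each member had 6 of them in its window. Of 1600 genes of the table with a position, 10, or 0.625%, had 6 or more sites, and 342 had at least 1. The members were named with their sites in view, so that number is no finding. Genes with 7 or more were Sorcs2, Cdh13, 2900026A02Rik and Nrg1, and 3 genes, Auts2, Id1 and R74862, had 5, just below the members. Of the 10 genes 4 were lower in quiescent than in proliferative cells of both tumours, namely the 3 members and Nrg1, and 4 were higher. Of all genes 52.3% were lower and 35.8% higher. The members were chosen with ratios and sites in view, so these counts link neither to the other. All members are long genes, and among 112 genes of the table between 90 and 170 kb long, a span set to hold the members, the median number of sites was 0. Actn1, the shortest, had the densest sites, at 5.32 per 100 kb of window, against 3.86 for Celsr1 and 3.24 for Tbcd.

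**Figure D3:**
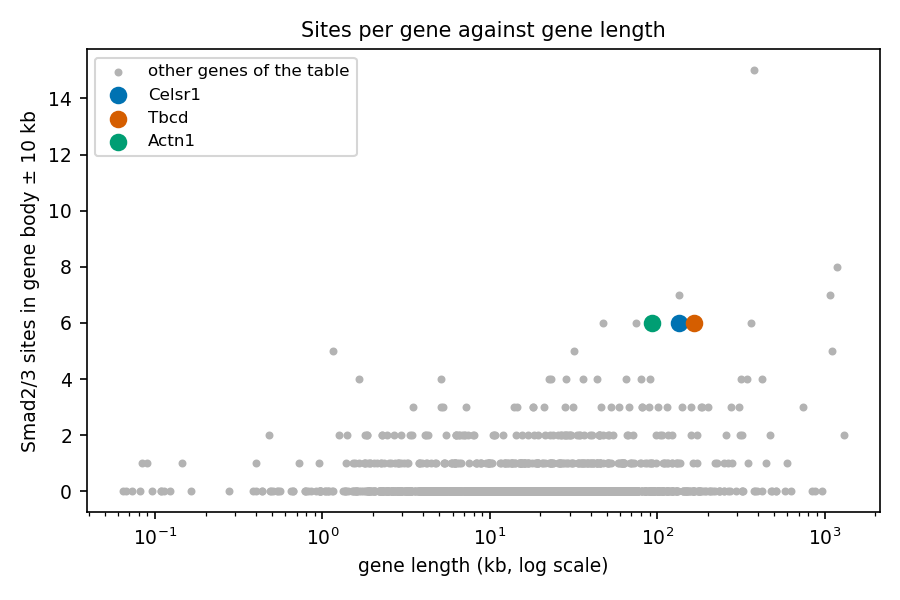
Number of Smad2/3 sites in the gene body with 10 kb either side (y axis) against gene length in kb (x axis, log scale) for 1600 genes of the table (grey) and the members (colour). The 3 members all stand at 6 sites, where most genes of their length have 0.

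The number of listed sites in accessible chromatin was not the same at each member. Of the 6 sites, 4 lay in a merged ATAC peak at Celsr1 (66.7%, exact 95% binomial interval 22.3 to 95.7), 3 at Actn1 (50%, 11.8 to 88.2) and 0 at Tbcd (0%, up to 45.9%), against 3690 of all 6143 sites (60.1%, 58.8 to 61.3). No test of these shares was run. The intervals cover counting error only and treat sites as independent, though neighbouring sites can lie close, with starts 1.1 kb apart for a pair at Tbcd. Sites and peaks were in view when the members were chosen, so the intervals cannot decide whether a member differs from all sites. Among the 10 genes with 6 or more sites Tbcd was the only one with no site in a merged peak. Tbcd also had few peaks, 3 in its window, against 11 at Celsr1 and 8 at Actn1, where genes of the table of this length had a median of 6 and a middle range of 3 to 9. The 1 Mb either side of the Tbcd window held 52 further peaks, and 4 of 8 further sites there lay in one.

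Celsr1 (NCBI gene 12614) lies at chr15:85898758-86034223 (GRCm38, the assembly that mm10 names) and is 135.5 kb long. Its sites were spread over 128.1 kb. The first, chr15:85894062-85894262, lay 4.6 kb outside the gene body within the neighbouring gene Trmu, and the second, chr15:85935696-85935896, in the gene body 37 kb from its lower-coordinate end. These 2 sites stood in a stretch of 83.8 kb with no merged peak. The other 4, chr15:85966031-85966231, chr15:85981968-85982168, chr15:85991364-85991564 and chr15:86021986-86022186, all lay whole within peaks, at chr15:85965851-85966550, chr15:85981951-85982600, chr15:85991351-85991950 and chr15:86021851-86022250. All accessible sites of Celsr1 thus lay 67.4 kb or more from the lower-coordinate end of the gene, and between 12.1 and 68.1 kb from its upper-coordinate end. The strand of Celsr1 was not read here, so these distances are not distances from its start site. Peaks without a listed site lay at chr15:85963451-85963900, chr15:85987801-85988300, chr15:86004101-86004450, chr15:86007551-86008050 and chr15:86015901-86016550. A further pair, chr15:86033901-86034600 across the upper end of the gene and chr15:86038751-86039250 beyond it, touched the long noncoding gene Gm34764.

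Actn1 (NCBI gene 109711) lies at chr12:80167542-80260420 on the minus strand and is 92.9 kb long. Of its sites, 5 fell within 15.2 kb of the gene body, between 24.8 and 39.8 kb downstream of the start site. In genome order these were chr12:80220455-80220655 and chr12:80223600-80223800, each in a peak (chr12:80220201-80220700 and chr12:80223501-80224000), chr12:80225765-80225965 and chr12:80232266-80232466, each 1.8 kb from the nearest peak, and chr12:80235470-80235670, in the peak chr12:80235351-80235750. The remaining site, chr12:80203419-80203619, stood apart, 56.8 kb downstream of the start site and 16.6 kb from a peak. The peaks without a site were chr12:80228901-80229550 and chr12:80234301-80234600 among the clustered sites, chr12:80244001-80244500 and chr12:80251201-80251700 closer to the start, and chr12:80260051-80260800 over it. A stretch of 72 kb, from beyond the gene's 3′ end to the clustered sites, held this site and no peak. The clustered sites of Actn1 and the accessible sites of Celsr1 lay inside the gene body. None of the 6 sites of Actn1 and none of the 6 of Tbcd lay over the start site peak of its own gene. The start site of Celsr1 was not placed, and the share of all sites that lie over start site peaks was not counted.

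Tbcd (NCBI gene 108903) lies at chr11:121451991-121617170 on the plus strand and is 165.2 kb long. Its sites were spread over 115.9 kb, from 33.8 to 149.5 kb downstream of the start site. They were chr11:121485705-121485905, chr11:121519835-121520035, chr11:121551156-121551356, chr11:121552245-121552445, chr11:121558602-121558802 and chr11:121601388-121601588, and the pair around 100.4 kb had starts 1.1 kb apart. The nearest merged peak was between 3.4 and 50.2 kb away. The peaks were chr11:121451551-121452200 over the start site, chr11:121515851-121516400, which also lies in Zfp750, a gene nested in Tbcd that encodes a regulator of keratinocyte differentiation, and chr11:121543901-121544400. The site nearest to a peak, at 3.4 kb, lay just beyond the upper-coordinate end of Zfp750, whose strand was not read here. Zfp750, B3gntl1, which overlaps the far end of Tbcd, and the flanking genes Fn3k and Trmu had no ratio in the table.

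**Figure D4:**
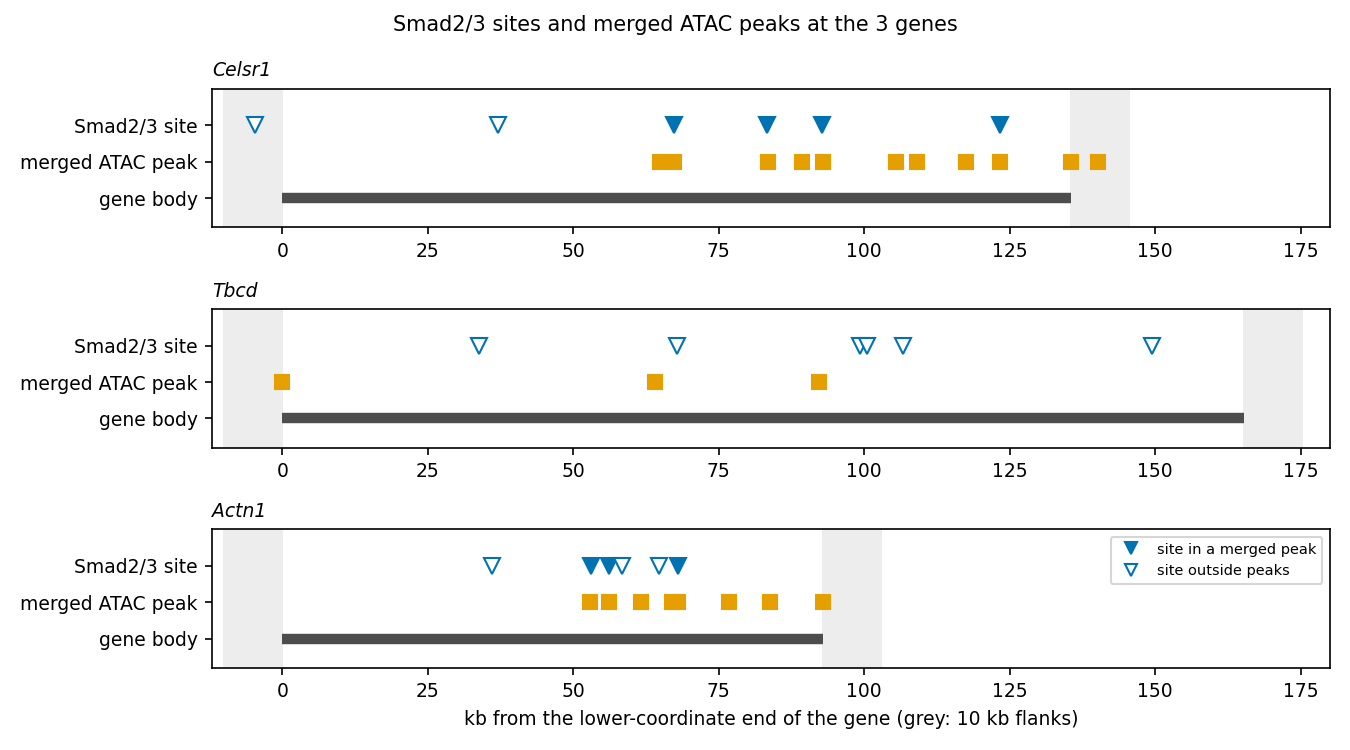
Positions of Smad2/3 sites (triangles, filled where they lie in a merged peak) and merged ATAC peaks (squares, at their centres and not to width) along Celsr1, Tbcd and Actn1, in kb from the lower-coordinate end of each gene, with the 10 kb flanks in grey. Of 6 sites each, 4 are filled at Celsr1, 0 at Tbcd and 3 at Actn1.

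Copy number and mutation calls are no part of the rule that defines the set. Tbcd lay in a called gain to 3 copies in both tumours, in SCC1 over chr11:116600000-122082543 (authors' Wilcoxon p = 1.85e-20) and in SCC2 over chr11:115800000-122082543 (p = 1.03e-11), in the authors' deposited table. A gain covered 45.1% of 1600 placed genes in SCC1 and 44.1% in SCC2, and a loss, which covered 0 members, 1.56% in SCC1 and 1.5% in SCC2. No call covered Celsr1 or Actn1 in either tumour in the authors' deposited table, where the nearest call was 2.3 Mb from Celsr1 and 5.27 Mb from Actn1. Copy number was called on the ChIP input DNA of cultured cells, per the labels, and not of the sorted populations, and its part in the Tbcd ratios was not tested.

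Of the members only Actn1 had an entry among the authors' nonsynonymous mutations, which were called from the RNA reads. It was a T-to-A change at position 80204974 of chromosome 12, in exon 3 by the authors' annotation, with the coding change A328T and the protein change I110F, in which positions count from the first base of the coding sequence and the first residue. Residue 110 lies in the amino-terminal region that binds actin. The authors' deposited table listed it in the proliferative library of SCC2 with 70% of 10 reads (exact 95% interval 34.8 to 93.3) and in the proliferative library of SCC1 with 36% of 14 reads (12.8 to 64.9). The intervals overlap widely at this depth and cover counting error only. The change was not listed for the quiescent libraries, whose read depth at this position is not given, and no listed mutation had fewer than 10 reads. In SCC2 the quiescent library listed 95 mutations at a median of 19 reads, and the proliferative library 411 at 33. In SCC1 the quiescent library listed 422 at a median of 40 reads, and the proliferative library 498 at 35. A change not listed for a quiescent library is thus not shown to be absent from its cells. The same base change in both tumours was common: 325 mutations were listed in both proliferative libraries, or 65.3% of those of SCC1 and 79.1% of those of SCC2, and 33 of them in neither quiescent library. The position lay outside merged peaks and 1.4 kb from the nearest Smad2/3 site, the one of Actn1 that stood apart from the others.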

How the data were processed

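RNA ratios are log2 values deposited by the authors, computed between sorted populations of 1 tumour; the submitters' processing notes name mm10, Cuffdiff 2.2.0, Cufflinks 2.2.0 and TopHat2 2.0.9. By its name the table is of differentially expressed genes. The scaling of libraries and the rule by which its genes were chosen: not given in the sources used here. ChIP and ATAC reads were aligned with Bowtie to mm10, per the submitters' processing notes, and sites and peaks were deposited by the authors as positions without a score, the former limited, by the list's name, to bound sites with a motif. The copy number score is a whole number of copies deposited by the authors with a p-value per region. Mutation read counts and the percent of alternative reads were deposited by the authors, the latter as a whole percent. Callers: not given in the sources used here.

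Values were computed with scipy 1.17.1, pandas 2.3.3 and numpy 2.4.6 under Python 3.11.15 and drawn with matplotlib 3.10.9. The members, gene lists and rules were chosen with earlier results of these data known. Genes were placed with RefSeq positions of GRCm38.p6, where 1600 of 1609 genes matched, 1492 by symbol and 108 by a synonym. Overlap means at least 1 bp. Higher and lower mean a log2 ratio of that sign in both tumours. Genes with a ratio within 0.1 of the limit of 12 in size were left out of distances. For each list the text names up to 3 genes, those with the largest mean ratio of quiescent over proliferative cells and one sign in both tumours, and for each member its 5 nearest genes, of which 2 for Actn1 are not reported here. No test of single genes was run, since the members were chosen with their values in view, and the counting code was tested on simulated data. Alternatives were another threshold, each tumour alone, and other windows and overlaps. Site sequences and the Tgfbr2KO libraries on their own were not analysed here.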

Additional observations from a re-analysis of the deposited data

Results flagged for a closer look

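The tumours had opposite signs for Tbcd in quiescent over double negative cells, where the authors' deposited table lists a log2 ratio of 0.34 (SCC1) and -0.10 (SCC2). For Actn1 the signs were opposite too, at 0.11 (SCC1) and -0.59 (SCC2) by the authors' deposited table. Each value rests on 1 library per population, and the difference between tumours was not tested.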

How the results depend on the processing

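No paired analysis was possible because the results come from no test: each ratio already pairs populations within a tumour, and a test over both tumours was left out since the genes were chosen with these values in view. With ratios of 1 or more in size required in both tumours, the genes lower and higher numbered 375 and 182 in quiescent over proliferative cells, 406 and 250 in double negative over proliferative cells and 37 and 21 in quiescent over double negative cells. Of the related lists, at that size in quiescent over proliferative cells, 0 planar polarity, 0 tubulin and folding and 0 actin crosslinker genes were left in either direction, 4 microtubule-binding genes were left lower and 0 higher, and 2 contractility genes lower and 0 higher. In double negative over proliferative cells 5 tubulin and folding, 3 microtubule-binding and 2 contractility genes were left lower. Left higher there were 1 planar polarity, 1 actin crosslinker and 2 contractility genes. With a ratio were 2 planar polarity, 12 tubulin and folding, 6 microtubule-binding, 6 actin crosslinker and 6 contractility genes. At that size 23.3% of all genes were lower and 11.3% higher in quiescent over proliferative cells. These shares were 25.2% and 15.5% in double negative over proliferative cells. With each tumour alone, in quiescent over double negative cells, genes with a ratio below 0 numbered 687 to 1141 and genes above 0 numbered 467 to 919. The mean ratio of quiescent over double negative cells, 0.12 for Tbcd and -0.24 for Actn1, changed sign with the tumour: with SCC2 alone it was -0.10 and with SCC1 alone 0.34 for Tbcd, and with SCC2 alone -0.59 and with SCC1 alone 0.11 for Actn1. Windows of 50 kb either side raised the peaks to 17 at Celsr1, 5 at Tbcd and 13 at Actn1, since more sequence was searched. The sites per member numbered 5 to 7 over the windows tried, and the share of sites in peaks was the same with the whole site required in the peak and with a peak within 500 bp. Of 75 alternative values 2 changed sign, 20 moved beyond the limits set for them, and 53 did not. For a ratio that limit was 1 SD of the 2 tumours, which each tumour alone always meets, so a ratio could be counted only by a change of sign: Actn1 in quiescent over proliferative cells, with a mean of -0.76, was -0.37 with SCC1 alone and is among the 53. Depth is unknown for the ratios and cannot be read from the merged peaks.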
